A study of Mus musculus with 8 samples.

Results

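The loss of a transcription factor was compared between 2 cell types of one differentiation series: embryonic stem cells (ESCs) of the mouse and the primordial germ cell-like cells (PGCLCs) made from them. For each gene the difference between Tfap2c-/- and control cells was taken in PGCLCs and in ESCs on the log2 scale, and the second difference was subtracted from the first. This value is called the difference of effects here, and it is negative where the knockout lowered a gene more in PGCLCs than in ESCs. All 18193 genes that have a probe set of their own were tested on all 8 arrays, each gene by its probe set with the highest mean, and 27 of the 18193 genes had a difference of effects past the limma test at an adjusted p of 0.05.

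Each of the 4 groups had 2 arrays. Control ESCs carried the Blimp1mVenus transgene, which puts a fluorescent protein under the promoter of Prdm1, and Tfap2c alleles flanked by loxP sites (flox/flox). Tfap2c-/- ESCs came from the same parental lines after a transient transfection with pGK-Cre, a plasmid that drives the Cre recombinase from a ubiquitous promoter. The ESCs were grown in serum-free medium with LIF and the inhibitors PD0325901 and CHIR99021. Control and Tfap2c-/- PGCLCs were made from these lines through an epiblast-like stage with BMP4, BMP8b, SCF, LIF and EGF, and were sorted for the Blimp1mVenus reporter. A pair of ESC lines was established, and the labels number the 2 arrays of a group as replicates without naming the line of each. The study states that array RNA came from both lines, each as control and Tfap2c-/-, in ESCs and in PGCLCs. The 2 arrays of a group would then be of different lines, and the p-values measure the spread between such samples. A knockout line and its parent line form a pair. The main fit does not use this pairing, and a fit with the replicate number as a block is given at the end. Cell type, medium, growth factors and the sort changed together between ESCs and PGCLCs and cannot be told apart.

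TFAP2C belongs to the AP-2 family of transcription factors, which bind GC-rich DNA as dimers. In the embryo it acts downstream of PRDM1 (BLIMP1) when epiblast cells become primordial germ cells, the precursors of sperm and egg. The comparison asks which genes depended on it in the one cell type and not in the other.

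The labelled cell types were compared with their markers. The 5 measured germ cell markers (Prdm1, Prdm14, Dppa3, Kit and Dnd1) lay above background on all 8 arrays. Their summed level on the log2 scale was 9.33 to 9.79 in ESCs, 11.45 and 11.81 on the control and 9.75 and 9.79 on the knockout PGCLC arrays. Dppa3 led the sum in control PGCLCs, at 10.37 and 10.87, and had 6.28 and 6.40 in knockout PGCLCs. Of the 5 genes Dppa3 and Kit passed as lower in PGCLCs, and the other 3 did not pass. The 5 pluripotency markers (Pou5f1, Sox2, Nanog, Zfp42 and Esrrb) had summed levels of 12.81 to 13.15 on all arrays. Among markers of other cells, the summed level of the 6 primitive endoderm genes was 5.62 to 5.83 in ESCs and 5.63 to 6.44 in PGCLCs, that of the 5 trophoblast genes 5.40 to 6.26 and 5.48 to 6.56, and that of the 6 fibroblast genes 5.86 to 5.96 and 6.12 to 7.48. The 5 mesoderm genes had 6.54 to 6.95 in ESCs and 6.32 to 6.72 in PGCLCs, and the 4 neural genes 6.13 to 6.59 and 6.44 to 7.08. Of the 4 measured blood markers Ptprc and Cd34 were at background on all 8 arrays, while Spi1 (4.21 to 4.67) and Laptm5, described with the called genes, were above it on all 8. In sorted cells measured in bulk, fewer cells of a type and less RNA per cell cannot be told apart.

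One PGCLC array stood apart in its control probes. On control PGCLC array 2 the mean level of the manufacturer's poly-A spike probes was 7.91, against 5.84 on control PGCLC array 1 and 7.44 and 6.72 on the Tfap2c-/- PGCLC arrays, and the 3′ minus 5′ difference of Gapdh was 0.95 against 0.31 to 0.52 on the other 7 arrays. The Tfap2c-/- ESC array 2 had the lowest 18S rRNA level, 8.54, where the other ESC arrays had 10.3 to 10.4. Their part in the results was not tested, and counts without each array are given beside the main counts.

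The difference of effects was lower in PGCLCs for 21 genes and higher for 6 genes. The call rate was 0.148% of all genes tested, 0.115% for lower and 0.033% for higher values. All 27 genes also passed in PGCLCs alone, where 562 genes passed (3.09% of those tested), 235 of them higher (1.29%) and 327 lower (1.8%) in the knockout. In ESCs alone 0 genes passed (0%), while 455 genes had an unadjusted p under 0.05 in limma. The median 95% interval of the difference of effects was ±0.60 on the log2 scale over all genes. Leaving out 1 array changed the number of calls by more than 1.5 times in each of the 8 cases. It was 1 without control ESC array 1, 11 without control ESC array 2, 7 and 8 without Tfap2c-/- ESC array 1 or 2, 56 and 11 without control PGCLC array 1 or 2, and 10 and 2 without Tfap2c-/- PGCLC array 1 or 2. The 562 calls in PGCLCs became 372 and 366 without control ESC array 1 or 2, 87 without control PGCLC array 2, and 230 and 98 without Tfap2c-/- PGCLC array 1 or 2.

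**Figure D1:**
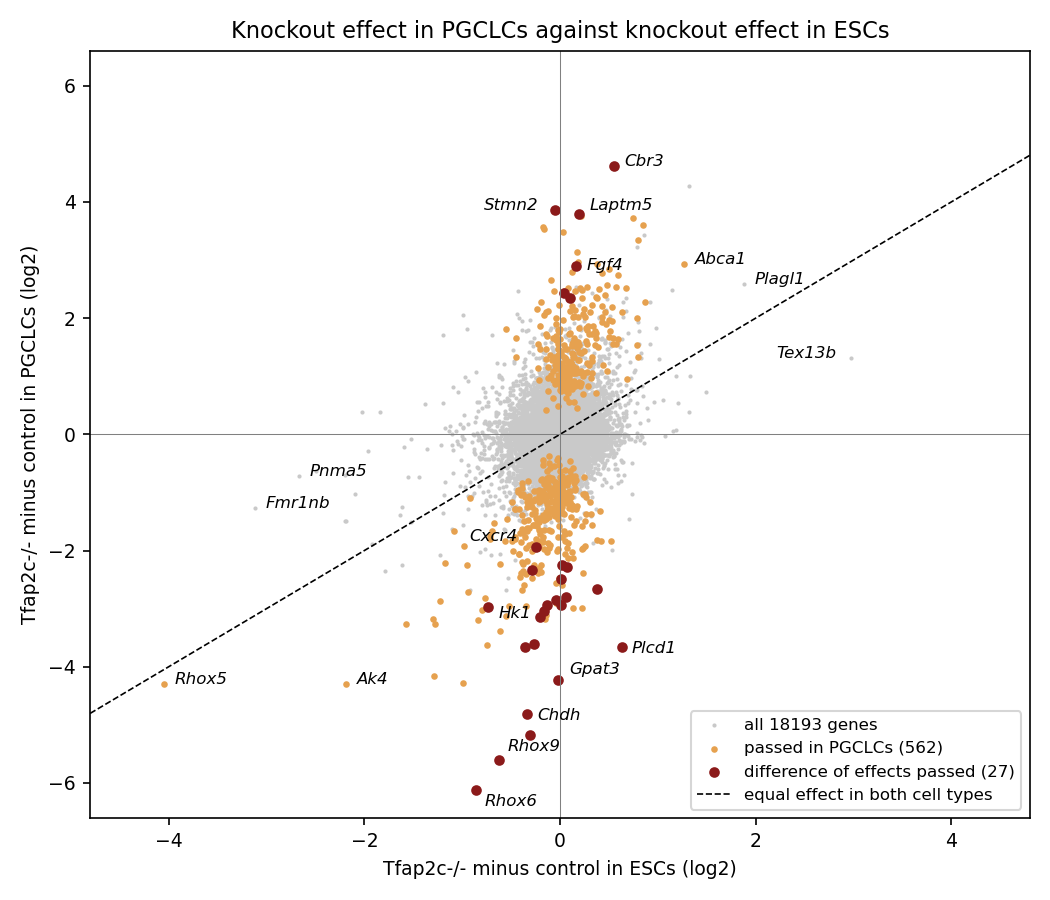
Each point is a gene, with its Tfap2c-/- minus control difference (log2, means of 2 arrays) in ESCs on the horizontal axis and in PGCLCs on the vertical axis. The 27 dark points, whose difference of effects passed, lie close to 0 on the ESC axis, while Rhox5 lies near the dashed line of equal effects.

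The genes of the lower group were the reproductive homeobox genes Rhox6 and Rhox9 and the gene BC048679, followed by Chdh, Plcd1, Gpat3, Adgrg6, Calcoco2, Glis3, Afap1, Ttyh2, Hk1, Pth1r, Hey1, Gm9, Cerk, Crip1, Aifm3, Rassf5, Erbb3 and Cxcr4. Their differences of effects ran from −5.25 to −1.70. In PGCLCs they fell by 1.94 to 6.12 on the log2 scale, and in ESCs their differences lay between −0.86 and 0.63 with none passing after adjustment. The ESC interval lay below 0 for Rhox6 (−1.51 to −0.21), Rhox9 (−1.10 to −0.14) and Rassf5 (−1.22 to −0.26), and it included 0 for the other 18. In all 21 genes both control PGCLC arrays stood above each of the other 6 arrays. The control level enters the contrast, so this order is a description and no separate result.

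Whether a fall could have been seen in ESCs depended on the level there. The background level of an array was set as the 95th percentile of 114 genes for olfactory, vomeronasal and taste receptors and keratin-associated proteins, and it was 3.57 to 3.93 on the log2 scale. Of the 21 genes of the lower group, 9 were at background on all 4 ESC arrays (Rhox9, BC048679, Chdh, Gpat3, Adgrg6, Pth1r, Gm9, Cerk and Cxcr4), against 36.5% of all genes. Rhox6 was above it on 2 and Rassf5 on 1 of the 4 ESC arrays. Their levels on the control ESC arrays were 3.79 and 4.07 for Rhox6 and 3.57 and 3.79 for Rassf5, with little room for a fall. The other 10 genes were above background on all 4 ESC arrays, so that some fall could have been measured there. The room for it was small in Plcd1 (3.84 and 4.33 on the control ESC arrays), Glis3 (4.22 and 4.13), Aifm3 (4.38 and 4.48) and Hey1 (4.52 and 4.68). A fall as large as in PGCLCs would have ended below background in these genes and in Calcoco2 and Ttyh2. With the array median or the 90th percentile of the receptor genes as background level, 6 of the 9 genes stayed at background.

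Rhox6 and Rhox9 lie in the Rhox cluster of the X chromosome, whose homeobox genes are expressed in the reproductive tract, germ cells and placenta. Rhox6 had levels of 3.79 and 4.07 on the control and 3.43 and 2.71 on the knockout ESC arrays, 9.08 and 9.09 on the control and 3.21 and 2.73 on the knockout PGCLC arrays. Only the control PGCLCs were high. Its difference of effects was −5.25 (95% interval −6.17 to −4.34, limma adjusted p = 0.0055). Rhox9 had 3.64 and 3.40 on the control and 3.10 and 2.70 on the knockout ESC arrays, 8.78 and 8.99 on the control and 3.23 and 3.34 on the knockout PGCLC arrays. The pattern was that of Rhox6, with a difference of −4.98 (−5.65 to −4.30, limma adjusted p = 0.0039), and the call held without each of the 8 arrays in turn. Each of these genes had 1 probe set, and whether related Rhox transcripts bind to it was not tested.

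Rhox5, another member of the cluster, was also expressed in ESCs. It had 8.15 and 9.66 on the control and 4.72 and 5.0 on the knockout ESC arrays, 10.23 and 10.03 on the control and 5.90 and 5.77 on the knockout PGCLC arrays. In both cell types the knockout arrays lay below the controls without overlap. The knockout effect was −4.29 in PGCLCs (limma adjusted p = 0.0040) and −4.05 in ESCs, where the 95% interval was −5.02 to −3.07 and the limma adjusted p 0.263, the lowest of that comparison. The difference of effects was −0.25 with an interval of −1.62 to 1.13. Without control ESC array 1 or 2 Rhox5 was the 1 gene that passed in ESCs (limma adjusted p = 0.00373 and 0.0466). Rhox13, the other measured Rhox gene, had a difference of effects of 1.03 that did not pass, so that 2 of 4 measured Rhox genes were called.

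Among the germ cell genes, Cxcr4 encodes the receptor for the chemokine CXCL12, which guides migrating primordial germ cells. Its levels were low throughout, 2.92 and 2.85 on the control and 2.56 and 2.71 on the knockout ESC arrays, 4.36 and 4.28 on the control and 2.51 and 2.24 on the knockout PGCLC arrays. It was above background in control PGCLCs alone, and its difference of effects was −1.70 (−2.20 to −1.19, limma adjusted p = 0.047). The call was lost without each of the 8 arrays in turn, as were those of Aifm3, Rassf5, Erbb3 and Grtp1. Kit, the receptor for SCF, had a difference of −1.81 (−2.47 to −1.14) with a limma adjusted p of 0.085 and had high levels in all ESCs, 7.70 to 8.09. Dppa3 (Stella), a marker of early germ cells, fell by 4.28 in PGCLCs (limma adjusted p = 0.041). The 2 control ESC arrays of Dppa3 differed, at 5.27 and 7.88, and its difference of effects of −3.29 had an interval of −6.09 to −0.50 and did not pass (limma adjusted p = 0.47).

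The lower group held 1 of 14 measured choline and one-carbon genes (list median 0.16), 1 of 17 glycolysis genes and 1 of 13 phospholipase C genes (list median −0.14). It held 0.115% of all genes tested. Chdh, the mitochondrial choline dehydrogenase, had 2.86 and 2.99 on the control and 2.57 and 2.60 on the knockout ESC arrays, 6.84 and 7.75 on the control and 2.54 and 2.43 on the knockout PGCLC arrays. It was at background on every array but the control PGCLC arrays, with a difference of −4.47 (−5.38 to −3.55, limma adjusted p = 0.011). Gpat3, an acyltransferase of triglyceride synthesis, showed the same order of the groups with a difference of −4.21. Cerk, the ceramide kinase, had a difference of −2.49, at background in ESCs and just above it on both Tfap2c-/- PGCLC arrays (4.0 and 3.99).

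Hk1, the hexokinase that starts glycolysis in many tissues, was well above background in ESCs. Its levels were 7.40 and 7.73 on the control and 7.64 and 7.16 on the knockout ESC arrays, 8.06 and 8.35 on the control and 5.02 and 5.29 on the knockout PGCLC arrays. The ESC arrays of both genotypes overlapped, and the Tfap2c-/- PGCLCs stood below all of them. The difference of effects was −2.89 (−3.63 to −2.14, limma adjusted p = 0.024), and the second probe set of Hk1 gave −0.52. Of the 17 measured glycolysis genes Hk1 was the 1 called gene, while the median of the list was 0.44 and its relative Hk2 had 1.26 (limma adjusted p = 0.52). Plcd1, a phospholipase C, had 3.84 and 4.33 on the control and 5.14 and 4.29 on the knockout ESC arrays, 8.33 and 8.78 on the control and 4.67 and 5.12 on the knockout PGCLC arrays. It had the highest ESC difference of the lower group, 0.63, opposite in sign to its fall of 3.66 in PGCLCs, and its interval in ESCs (−0.15 to 1.41) included 0.

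Afap1 and Ttyh2 followed the pattern of Hk1. Afap1, an adaptor that binds actin filaments, had 6.89 and 6.84 on the control and 6.73 and 7.02 on the knockout ESC arrays, 8.05 and 8.29 on the control and 5.44 and 5.02 on the knockout PGCLC arrays. Ttyh2, a membrane protein of the tweety family, had 5.52 and 6.10, 5.51 and 5.70, 7.0 and 7.23, and 3.88 and 4.07 in the same order of groups. In these 3 genes the mean of Tfap2c-/- PGCLCs was 1.64 to 2.32 below the mean of the 4 ESC arrays. The other probe sets of Afap1 and Ttyh2 gave values as small as −0.20 and −0.33, so their calls rest on the probe set with the highest mean.

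Erbb3, a receptor for neuregulins, had 6.65 and 6.90 on the control and 6.43 and 6.53 on the knockout ESC arrays, 8.80 and 8.85 on the control and 6.57 and 6.40 on the knockout PGCLC arrays. The knockout PGCLCs were at the ESC level, and the difference of effects was −2.05 (−2.56 to −1.53, limma adjusted p = 0.024). Its second probe set gave 0.31, with the opposite sign. Hey1, a repressor downstream of Notch, had 4.52 and 4.68, 4.49 and 4.63, 7.63 and 8.07, and 5.20 and 4.79 in the same order, and its difference was −2.81. Pth1r, the receptor for parathyroid hormone, and Adgrg6, an adhesion receptor, were at background on all arrays but the control PGCLC arrays, with differences of −2.85 and −3.34. Glis3, a zinc finger transcription factor, had −3.05 and was above background on all ESC arrays.

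Calcoco2, an autophagy receptor, kept the highest level in the knockout PGCLCs relative to ESCs. It had 5.20 and 5.37 on the control and 5.03 and 4.81 on the knockout ESC arrays, 9.71 and 9.87 on the control and 6.25 and 6.01 on the knockout PGCLC arrays, which lay above all 4 ESC arrays. Its difference of effects was −3.30 (−3.88 to −2.72, limma adjusted p = 0.0055). Crip1, a small LIM domain protein, had 8.45 to 8.76 in ESCs, 10.47 and 10.35 on the control and 8.23 and 8.02 on the knockout PGCLC arrays. The difference was −2.35 (−2.83 to −1.87, limma adjusted p = 0.011). Aifm3 had a difference of −2.27, with −0.70 from its other probe set.

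**Figure D2:**
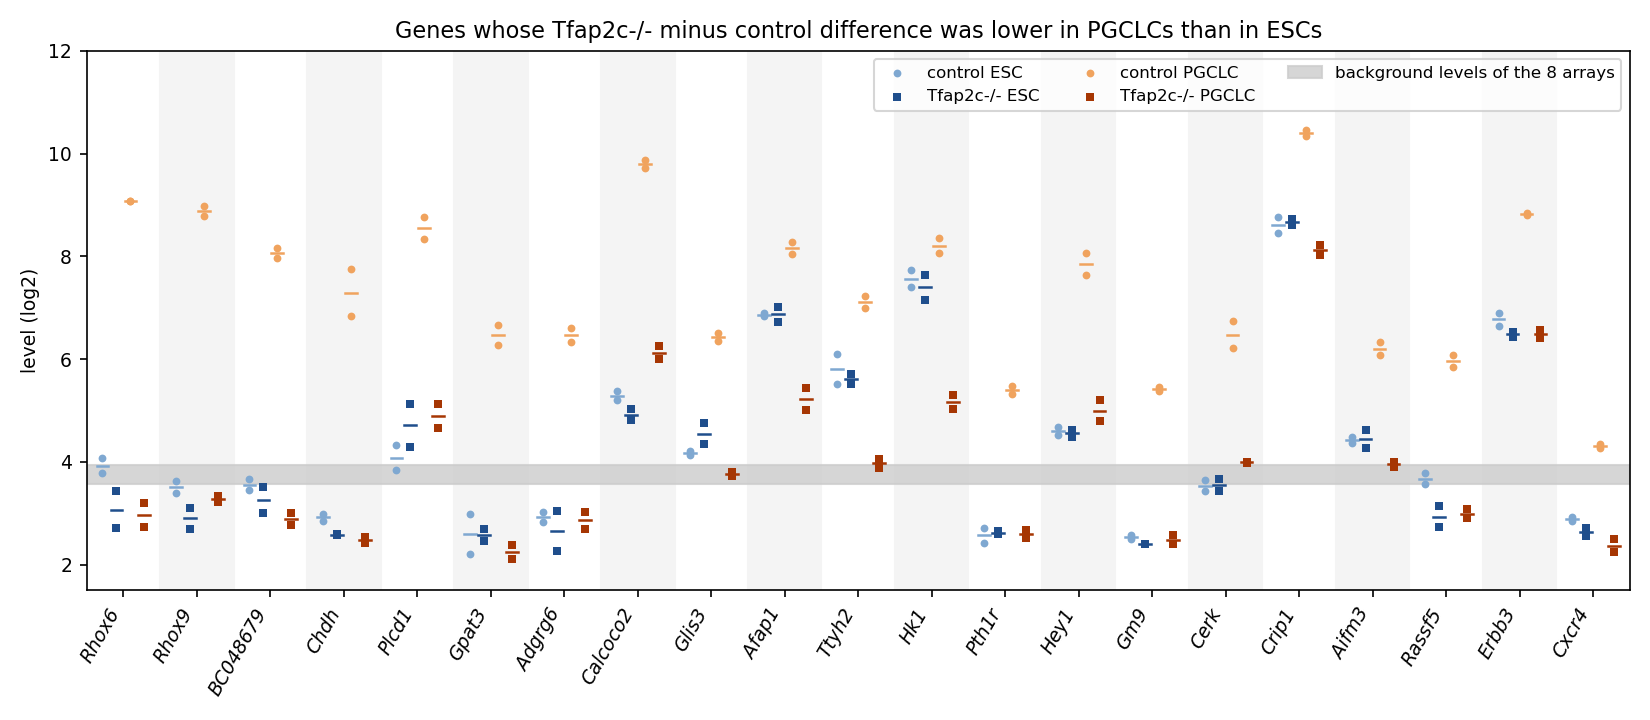
Levels (log2) of the 21 genes whose difference of effects was lower in PGCLCs, with a point for each array, a bar at the mean of each group of 2 arrays, and a grey band over the range of the background levels of the 8 arrays (3.57 to 3.93). Control PGCLCs are the highest group of every gene shown, and the ESC points of 9 genes lie at background.

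The 6 genes of the higher group were all above background on all 4 ESC arrays, and in all 6 both control PGCLC arrays stood below each of the other 6 arrays. In PGCLCs the knockout raised them by 2.34 to 4.61, and in ESCs their differences lay between −0.05 and 0.55. Fgf4 encodes a growth factor that pluripotent cells secrete. It had 9.21 and 9.37 on the control and 9.35 and 9.55 on the knockout ESC arrays, 6.39 and 6.0 on the control and 8.78 and 9.41 on the knockout PGCLC arrays. The knockout PGCLCs were near the ESCs, and the difference of effects was 2.74 (1.99 to 3.49, limma adjusted p = 0.032). Of its 4 probe sets the values ran from 0.44 to 2.85.

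Cbr3, a carbonyl reductase, had the highest value of the group. Its levels were 10.13 and 9.49 on the control and 10.25 and 10.47 on the knockout ESC arrays, 5.01 and 4.26 on the control and 9.32 and 9.17 on the knockout PGCLC arrays. The difference of effects was 4.06 (3.13 to 5.0, limma adjusted p = 0.016). Stmn2, a microtubule regulator best known from neurons, had 10.56 and 10.65, 10.61 and 10.49, 5.84 and 4.8, and 9.22 and 9.15 in the same order of groups, with a difference of 3.92 (2.97 to 4.87, limma adjusted p = 0.022). In both genes the knockout PGCLCs stayed below every ESC array.

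Cobl, an actin nucleator, had 8.08 and 7.87 on the control and 8.07 and 7.94 on the knockout ESC arrays, 5.30 and 5.06 on the control and 7.43 and 7.81 on the knockout PGCLC arrays, and its difference was 2.40 (1.79 to 3.02, limma adjusted p = 0.024), with 0.54 from its other probe set. Grtp1, a TBC domain protein, had a difference of 2.24. Laptm5, a lysosomal membrane protein of blood cells, had 3.59 (limma adjusted p = 0.049). Its value came from a probe set marked by the manufacturer as open to cross-hybridization, its 5 probe sets ran from −0.13 to 3.59, and with such probe sets left out its PGCLC difference was −0.07. It is also 1 of the 4 measured blood markers, whose summed level was 9.21 to 9.48 in ESCs, 5.97 and 5.63 on the control and 8.31 and 8.55 on the knockout PGCLC arrays, a sum led by Laptm5 itself. Spi1, another of them, had 4.34 to 4.6 in ESCs and 4.21 to 4.67 in PGCLCs. The part of other cells in this value was not tested.

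**Figure D3:**
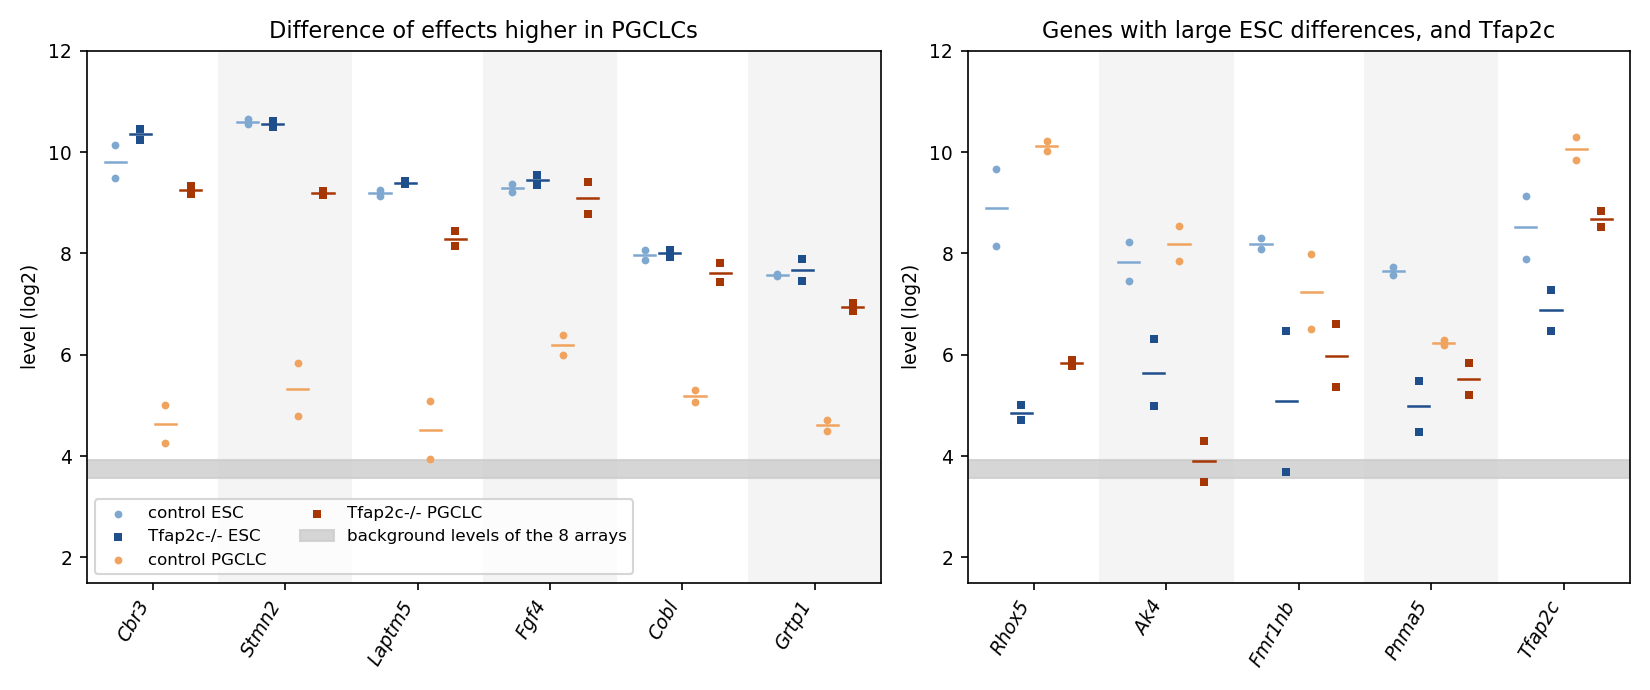
Levels (log2) by array of the 6 genes whose difference of effects was higher in PGCLCs (left) and of 4 genes with large ESC differences and Tfap2c (right), drawn as points with bars at the group means of 2 arrays and a grey band for the background levels. On the left, control PGCLCs are the lowest group of every gene, and on the right Rhox5 is low in the knockout of both cell types.

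The level in Tfap2c-/- PGCLCs was then set against that of ESCs. Its mean was within 1 of the mean of the 4 ESC arrays in 17 of the 21 genes of the lower group and in 5 of the 6 of the higher group. The exceptions were Hk1 (−2.32), Ttyh2 (−1.74), Afap1 (−1.64) and Stmn2 (−1.39), which were lower in these PGCLCs, and Calcoco2 (1.03), which was higher. Both Tfap2c-/- PGCLC arrays lay below every ESC array in 8 and above every ESC array in 3 of the 21 genes, and below every ESC array in 5 of the 6. For 10 of the 21 genes Tfap2c-/- PGCLCs were themselves at background on both arrays, where a further fall could not be measured. Among the 27 genes 3 were X-linked (Rhox6, Rhox9 and Gm9), where X-linked genes were 3.39% of all genes tested.

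**Figure D4:**
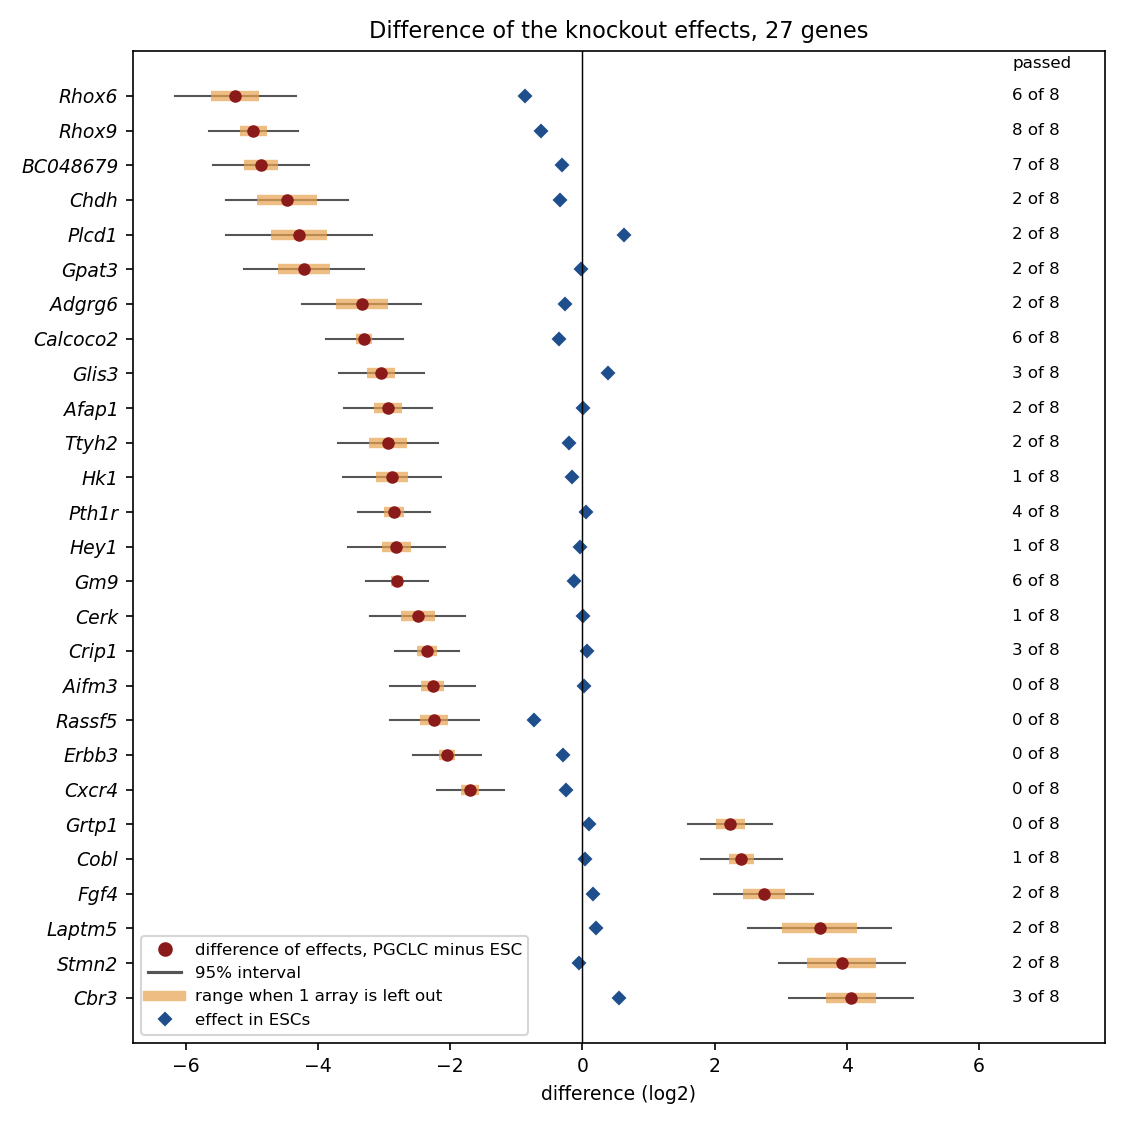
Difference of effects (PGCLC minus ESC, log2) of the 27 genes with its 95% interval, the range of its value when 1 array is left out, the ESC effect, and at the right the number of the 8 left-out fits in which the gene still passed. No range crosses 0. Aifm3, Rassf5, Erbb3, Cxcr4 and Grtp1 passed in none of the left-out fits, and Rhox9 passed in all of them.

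The number of calls was small beside the size of the differences. A difference of effects above 1 in size was found for 856 genes, of which 27 passed, and above 3 for 21 genes, of which 12 passed. Genes just past the threshold of the test were Rassf5 (limma adjusted p = 0.0498), Laptm5 and Cxcr4. Those just outside were Ceacam10, Slc7a9, Thsd4 and Tgif2, each with a limma adjusted p of 0.0511, and Atp8b1 with 0.0570. Ceacam10, a cell adhesion molecule, Slc7a9, an amino acid transporter subunit, and Thsd4 were at background on all 4 ESC arrays, with differences of −3.12, −2.96 and −2.15. Tgif2, a homeobox repressor, was expressed there at 7.26 to 7.51 and had 9.17 and 9.41 on the control and 7.63 and 7.66 on the knockout PGCLC arrays. Its difference was −1.48. Atp8b1, with −1.50, was at background on all 8 arrays. The second probe sets of Thsd4 and Tgif2 gave 0.29 and −0.78, and the 3 probe sets of Ceacam10 ran from −3.12 to −0.44.

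The 562 genes that passed in PGCLCs were then followed in ESCs. For 543 of them the unadjusted p of the difference of effects was under 0.05 and for 19 its 95% interval included 0, against an unadjusted p under 0.05 for 1639 of all 18193 genes. These genes were chosen by the PGCLC difference that enters the contrast, so the count follows in large part from that choice. The ESC difference was under 0.5 in size for 505 of the 562 genes (89.9%), beside 96.6% of all genes tested. It had the sign of the PGCLC effect in 403 of the 562 (71.7%), beside 54.5% of all genes. Of the 562 genes, 75 were at background on all 4 ESC arrays (13.3%).

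An ESC difference of at least 1 was found for 10 of the 562 genes, in each with the sign of the PGCLC effect. These were Rhox5, Ak4, AA467197, Urgcp, H2-Bl, Fermt3, Klhl13, Rasgrp2 and Dnajc6, which were lower, and Abca1, which was higher. They are named here because their values were large in both cell types, after their values were seen. Ak4, a mitochondrial adenylate kinase, had 7.45 and 8.22 on the control and 6.31 and 4.98 on the knockout ESC arrays, 8.54 and 7.84 on the control and 4.29 and 3.5 on the knockout PGCLC arrays. The knockout arrays lay below the controls in both cell types, by 4.29 in PGCLCs (limma adjusted p = 0.0070) and by 2.19 in ESCs (limma unadjusted p = 0.0026, which did not pass adjustment). Its difference of effects was −2.11 (−3.74 to −0.47, limma adjusted p = 0.43). Abca1, a cholesterol transporter, had differences of 2.92 in PGCLCs and 1.27 in ESCs.

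Of the genes expressed above background on all 4 ESC arrays, those with the largest PGCLC effects and no call included Apela and Zic2. Apela, a peptide ligand of the apelin receptor, had 8.68 to 9.05 in ESCs, 6.51 and 4.74 on the control and 9.32 and 9.44 on the knockout PGCLC arrays. The 2 control PGCLC arrays were apart by more than 1, and the difference of effects was 3.54 (1.99 to 5.09, limma adjusted p = 0.13). Zic2, a zinc finger factor of neural and epiblast cells, had 2.97 (0.85 to 5.09), with control PGCLC levels of 5.77 and 3.74. In both genes control PGCLC array 2, which stood apart in its control probes, was the lower one.

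None of the largest ESC differences passed, and they varied in how well the arrays of a group matched. Fmr1nb, an X-linked germ cell gene, had 8.31 and 8.08 in control ESCs and 6.47 and 3.69 in Tfap2c-/- ESCs, an ESC difference of −3.11 (−5.15 to −1.08). Pnma5, also X-linked, had 7.73 and 7.58 against 5.49 and 4.48 in ESCs, where the groups did not overlap, and 6.19 and 6.28 against 5.21 and 5.83 in PGCLCs. Its effects were −2.67 in ESCs and −0.72 in PGCLCs, and the difference of effects of 1.95 (0.83 to 3.07) did not pass (limma adjusted p = 0.25). Tex13b, another X-linked germline gene, was at background in control ESCs (2.31 and 2.09) and had 4.85 and 5.50 in Tfap2c-/- ESCs, an ESC difference of 2.98 (1.29 to 4.66).

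Imprinted genes were among the largest ESC differences in both directions, and their duplicate arrays disagreed. Grb10 had 4.31 and 9.02 in control ESCs and 3.56 and 8.27 in control PGCLCs, where array 2 was the higher of each pair. Rian, a non-coding RNA of the Dlk1 region, had 9.61 and 5.61 in Tfap2c-/- ESCs and 10.51 and 2.99 in Tfap2c-/- PGCLCs. Plagl1 and Slc38a4 had ESC differences of 1.88 and −2.49. The Y-linked gene Eif2s3y had 8.93 and 5.87 in control ESCs and 8.79 and 5.54 in control PGCLCs, against 7.45 to 8.94 in the knockout arrays. Of 24 measured imprinted genes 0 passed in the difference of effects, the PGCLC effect or the ESC effect. Over all genes these shares were 0.148%, 3.09% and 0%.

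The AP-2 genes themselves were examined. Tfap2c had 7.88 and 9.14 on the control and 7.28 and 6.47 on the knockout ESC arrays, 9.84 and 10.29 on the control and 8.52 and 8.85 on the knockout PGCLC arrays. The knockout arrays lay below the controls in both cell types without reaching background. Its effects were −1.38 in PGCLCs and −1.63 in ESCs, with a difference of 0.25 (−1.13 to 1.64), and none passed. Where the probe set lies relative to the deleted part of the gene is not given in the sources used here, so this signal does not check the genotype. Tfap2a, another AP-2 factor, had 4.17 to 5.77 with a difference of effects of 0.02, and Tfap2b, Tfap2d and Tfap2e were at background on all 8 arrays.

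Groups of genes were described by their counts and medians beside the medians of all 18193 genes, which were −0.04 for the difference of effects, −0.04 in PGCLCs and 0.00 in ESCs. Over all genes 0.148% passed in the difference of effects and 3.09% in PGCLCs. A count of 0 in a short list is near the first share and is no result about its genes. The 20 measured genes that the study lists as germ cell maintenance genes lowered in the knockout had a median difference of effects of −1.78. Of these 5 passed (Chdh, Cxcr4, Hk1, Rhox6 and Rhox9), while 15 passed in PGCLCs. The 23 measured somatic differentiation genes that the study lists as raised had a median of 1.53 with 1 call (Cobl) and 14 calls in PGCLCs, and the 9 pluripotency genes listed as raised a median of 1.51 with 1 call (Fgf4) and 6 in PGCLCs. The other 3 lists held 0 calls: 8 cell cycle genes (median 1.12, 1 call in PGCLCs), 6 epigenetic genes (1.17, 1 in PGCLCs) and 5 somatic genes listed as lowered (−1.29, 3 in PGCLCs). The study chose these lists on the same PGCLC arrays, so their direction is not independent evidence. Their ESC medians were −0.34, 0.24 and 0.10 for the first 3 lists named.

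Other lists separated early from later germ cell genes and naive from core pluripotency genes. Of 14 measured early germ cell genes 1 passed (Cxcr4) with a median of −0.32. Of 27 later germline genes 0 passed in any comparison, and 11 of them were at background on all 8 arrays. Of 14 naive pluripotency genes 1 passed (Fgf4), with a median of 0.64. Eras, a Ras protein of ESCs, had 3.69 (2.51 to 4.87, limma adjusted p = 0.058) and Klf4 2.23 (1.31 to 3.15, limma adjusted p = 0.11). Esrrb, Nr5a2 and Tcl1 of the same list had −0.01, 0.04 and 0.10. The 6 core genes (Pou5f1, Sox2, Nanog, Sall4, Lin28a and Utf1) had 0 calls and a median of 0.09. Pou5f1, the central pluripotency factor, had 11.14 to 11.32 in ESCs and 11.26 to 11.61 in PGCLCs.

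Among signalling lists, 0 of 17 WNT and hedgehog genes passed in the difference of effects (0.148% of all genes), where the median was 1.13. In PGCLCs 6 of them were raised (1.29% of all genes). Sfrp1, a secreted WNT antagonist, had 2.15 (0.95 to 3.35, limma adjusted p = 0.24), and Gli2, a hedgehog transcription factor, 3.46 (1.41 to 5.51) with control PGCLC levels of 6.40 and 4.33. Of 19 FGF and ERK genes 1 passed (Fgf4). Fgf15 had 2.25 (limma adjusted p = 0.063) and the receptor Fgfr2 −2.36 (limma adjusted p = 0.12). Of 18 BMP and Nodal genes 0 passed in the difference of effects, with a median of 0.29, and 3 were raised in PGCLCs, among them Tdgf1, a Nodal co-receptor, and Nodal.

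Epigenetic and cell structure lists held 0 or 1 calls each, beside a share of 0.148% over all genes. Of 15 DNA methylation genes 0 passed in the difference of effects and 2 rose in PGCLCs, Uhrf1 and Zfp57, with differences of effects of 1.2 and 1.46 that did not pass. Dnmt3l, a cofactor of de novo methylation, had 2.43 (0.10 to 4.75) with control PGCLC arrays at 6.51 and 4.01. Of 16 neuronal cytoskeleton genes 1 passed (Stmn2), and Nefl, a neurofilament gene, had 3.74 (limma adjusted p = 0.079). The 18 Hox genes had medians of 0.00 in the difference of effects, 0.00 in PGCLCs and 0.02 in ESCs, with 10 at background in ESCs. Of 16 measured carbonyl reductase and NRF2 target genes 1 passed (Cbr3), at a median of 0.17.

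**Figure D5:**
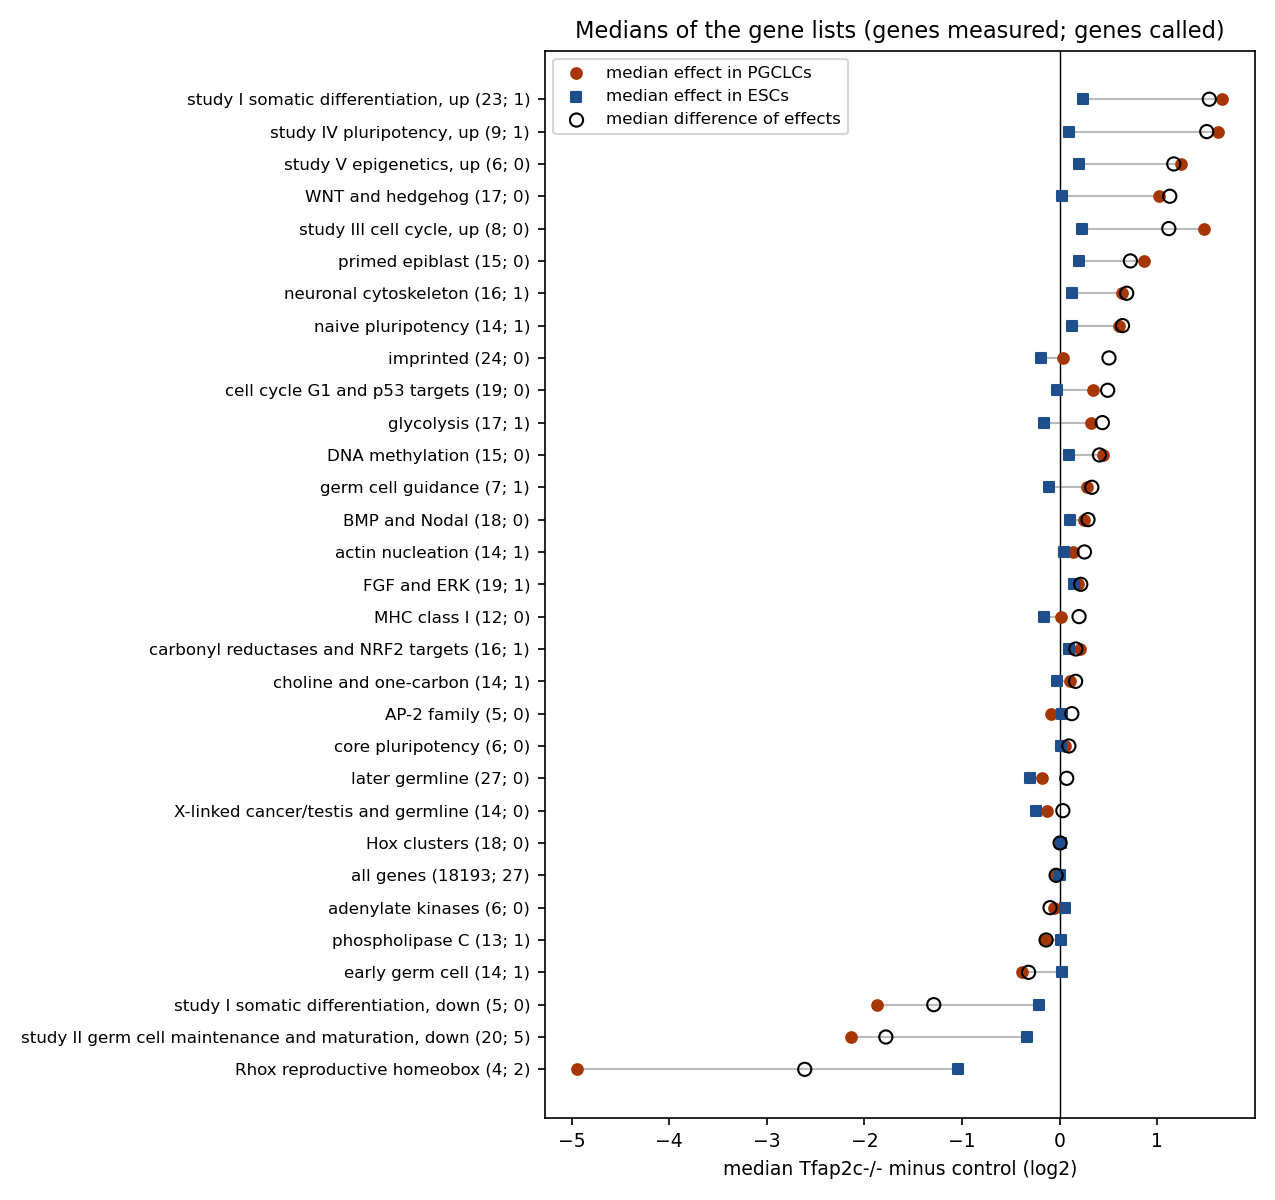
Median Tfap2c-/- minus control difference (log2) of each gene list in PGCLCs and in ESCs and the median difference of effects, with the number of measured genes and of called genes in brackets; lists named study were chosen by the study on these PGCLC arrays. The ESC medians of all lists but the Rhox genes lie between −0.34 and 0.24.

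The promoters of the called genes were read from RefSeq (build GRCm38.p6), in windows from 250 bases before to 50 bases after each start site. Windows existed for 21 of the 27 genes, and the motif GCCNNNGGC, the palindromic core that AP-2 proteins are known to bind, was searched on both strands, which read the same. It was found for 7 of the 21 genes (33.3%), which were Chdh, Ttyh2, Pth1r, Crip1, Aifm3, Grtp1 and Laptm5, and for 25.4% of all measured genes with a window. Over all windows in the table the share was 16.6%. A match is a description of the sequence, and binding in these cells was not measured on the arrays. The stretches below are shown because they hold the motif, in capitals, before the first start site of 5 of the called genes.
Crip1, chr12:113151764-113151923, plus strand: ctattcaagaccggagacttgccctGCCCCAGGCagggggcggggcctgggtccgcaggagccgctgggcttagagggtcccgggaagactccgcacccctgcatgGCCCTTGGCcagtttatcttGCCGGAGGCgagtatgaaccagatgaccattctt
Aifm3, chr16:17489533-17489676, plus strand: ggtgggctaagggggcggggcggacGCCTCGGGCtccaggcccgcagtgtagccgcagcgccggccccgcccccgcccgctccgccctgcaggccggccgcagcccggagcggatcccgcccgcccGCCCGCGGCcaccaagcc
Ttyh2, chr11:114675401-114675459, plus strand: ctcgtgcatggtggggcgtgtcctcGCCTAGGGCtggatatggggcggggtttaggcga
Chdh, chr14:30008773-30008831, plus strand: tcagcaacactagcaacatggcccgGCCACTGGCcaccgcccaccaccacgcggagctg
Laptm5, chr4:130913244-130913302, plus strand: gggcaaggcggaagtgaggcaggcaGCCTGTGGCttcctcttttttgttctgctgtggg
Crip1 holds the motif at 3 places, with its first base at −223, −142 and −122 relative to the start site, and Aifm3 at 2 places, −119 and −18. In Ttyh2 the first base is at −42, in Chdh at −202 and in Laptm5 at −47.

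The study ran chromatin immunoprecipitation of TFAP2C in PGCLCs and reported enrichment over an IgG control at sites of 10 genes. Of these genes 9 were measured on the arrays. Of the 9 genes 1 passed in the difference of effects (Fgf4), and 4 passed in PGCLCs, Sfrp1, Fgf4 and Klf4 higher and Kit lower. None of the 9 had an ESC difference above 0.93 in size. The primer pairs of Fgf4, Klf4 and Kit are given. Among the 4 genes that passed in PGCLCs, these 3 were expressed in ESCs at 7.70 or more on every array. Their ESC differences were 0.16, −0.01 and −0.11.
Fgf4 forward: agcactcaccgaactcacg
Fgf4 reverse: agcagcgtccctgtggtc
Klf4 forward: acaacggtgggggacact
Klf4 reverse: tagacaatcagcaaggcaga
Kit forward: gtttggtgatgcttttgtgc
Kit reverse: cacgcgcaacttttaacaaa
Klf4 had 11.03 and 10.98 on the control and 10.87 and 11.11 on the knockout ESC arrays, 6.91 and 6.65 on the control and 8.52 and 9.48 on the knockout PGCLC arrays, and Kit had 7.94 and 8.07, 7.70 and 8.09, 8.56 and 9.05, and 6.84 and 6.94 in the same order. In Klf4 the knockout PGCLCs stood between the control PGCLCs and the ESCs, and in Kit they stood below every ESC array.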

How the data were processed

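RNA of ESCs and sorted PGCLCs was hybridised to Affymetrix Mouse Genome 430 2.0 arrays, 8 in all. The values deposited by the authors are on a log2 scale (1.10 to 13.64, array medians 3.47 to 3.55). GCRMA is named in the submitters' processing notes but RMA in the study's methods, and which of them made the deposited values is not settled here. Both summarise probes and equalise the arrays' distributions, and GCRMA also uses probe sequence to correct the background, which can change low levels.

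Of 45101 probe sets 34945 name 1 gene, 932 name several and were left out with the 9160 not named here and 64 controls. Each gene was represented by 1 probe set, that of the highest 8-array mean. Group means of all 4 groups were fitted with limma 3.58.1 in R 4.3.3 (lmFit, eBayes with trend, 4 residual and 3.67 prior degrees of freedom), and p-values were adjusted by the Benjamini-Hochberg method over 18193 genes, with calls at 0.05 and 95% intervals. The scripts were tested on simulated data. The number of arrays, 2 per group, limits the precision. Tables were handled in Python 3.11.15 (pandas 2.3.3, NumPy 2.4.6, Matplotlib 3.10.9).

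Genes named in the text were those called in the difference of effects, the 5 nearest above the threshold, the 5 largest PGCLC effects without a call among genes above background on all ESC arrays, the 5 largest ESC differences in each direction, up to 4 genes of each list, and the AP-2 genes. Others were named after their values were seen. The comparison, its genes and the gene lists were chosen with earlier results of these data known. Alternatives were another quantile normalization, no trend, array weights, probe-set means, the removal of cross-hybridizing probe sets, a filter on dim genes, the replicate number as a block, all probe sets, a fold rule and leaving out each array.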

Additional observations from a re-analysis of the deposited data

Results flagged for a closer look

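For 27 genes the knockout effect in PGCLCs differed from that in ESCs by the test of the difference itself (limma, adjusted over all genes). The values, PGCLC effect minus ESC effect on the log2 scale, were −5.25 for Rhox6, −4.98 for Rhox9, −4.86 for BC048679, −4.47 for Chdh, −4.29 for Plcd1, −4.21 for Gpat3 and −3.34 for Adgrg6. They were −3.30 for Calcoco2, −3.05 for Glis3, −2.95 for Afap1, −2.94 for Ttyh2, −2.89 for Hk1, −2.85 for Pth1r, −2.81 for Hey1 and −2.81 for Gm9. Smaller ones were −2.49 for Cerk, −2.35 for Crip1, −2.27 for Aifm3, −2.24 for Rassf5, −2.05 for Erbb3 and −1.70 for Cxcr4. The positive values were 2.24 for Grtp1, 2.40 for Cobl, 2.74 for Fgf4, 3.59 for Laptm5, 3.92 for Stmn2 and 4.06 for Cbr3. For the 9 genes at background on all 4 ESC arrays a fall in ESCs could not have been measured. In Rhox6, Rassf5, Plcd1, Glis3, Aifm3, Hey1, Calcoco2 and Ttyh2 a fall as large as in PGCLCs could have been measured at most in part.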

How the results depend on the processing

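The 27 calls of the difference of effects became 41 after another quantile normalization (12 higher, 29 lower), with all 27 among them, and 312 genes passed a fold rule of 1.5 on the log2 scale (181 higher, 131 lower). With the mean of all probe sets of a gene 17 of the 27 still passed (25 calls in all), and Plcd1, Afap1, Ttyh2, Hk1, Aifm3, Erbb3, Grtp1, Cobl, Fgf4 and Laptm5 did not. Without cross-hybridizing probe sets Plcd1, Adgrg6, Aifm3, Rassf5, Cxcr4 and Laptm5 did not. Chdh, whose only probe set is of this kind, had no value under that setting. Leaving out 1 array gave 1 to 56 calls, 87 to 609 in PGCLCs and 0 to 1 in ESCs. The fold rule gave 354 genes in PGCLCs and 24 in ESCs. The median of all genes moved by less than 0.1 under each setting run. Without cross-hybridizing probe sets the PGCLC differences of Laptm5 and Srxn1 turned to −0.0747 and −0.0909. The cause was not tested. Replicate numbers were not taken to pair the samples. By the rule used, the correlations of the replicate differences between groups all had to lie above 0.1. They ran from −0.33 to 0.39, and 3 of the 6 lay above 0.1. Grb10 and Eif2s3y kept the order of the 2 control arrays in both cell types, and Rian that of the 2 knockout arrays. In Tfap2c-/- ESCs Grb10 had the other order (8.33 and 7.64). Whether the replicate numbers follow the ESC lines was not tested. With the replicate number as a block 22 genes passed, 21 of them among the 27 (not Cerk, Aifm3, Rassf5, Cxcr4, Grtp1 and Laptm5), with 556 in PGCLCs and 0 in ESCs. With 2 arrays per group, the median interval of ±0.60 limits which differences can be told from 0, and genes at background in ESCs have only a bound there.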
